A study of Mus musculus with 2 samples.

Results

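Genes of macrophage surface receptors, their signalling adaptors and macrophage effector proteins were followed in mouse lens at postnatal day 1. The 10 genes (Csf1r, Cx3cr1, Trem2, Tyrobp, Fcer1g, Cd163, Laptm5, Lyz1, Lyz2 and Mpeg1) were taken by the gene name that the array files give to each non-control probe, and every probe so named was used, which gave 18 of 41174 probes. They were chosen because macrophage genes had already been seen to differ between these arrays, so their differences are described here and not tested. The CKO sample was lens from mice in which Msx2, the gene of a homeobox transcription factor, was conditionally deleted (CKO) by Le-Cre, a Cre transgene under Pax6 control sequences that is active in the surface ectoderm that gives rise to the lens. It was compared with wild-type lens of the same age, for which the labels do not mention Le-Cre. Each genotype had 1 one-colour array, so nothing below has a replicate check and no p-value is given. The labels do not state how many animals each RNA came from.

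Macrophages depend on CSF1R, the receptor tyrosine kinase for the growth factors CSF1 and IL-34, for survival and growth. TREM2, a receptor for lipids, lipoproteins and cell debris, and many other myeloid receptors lack a signalling tail and borrow one from the adaptors TYROBP or FCER1G, whose immunoreceptor tyrosine-based activation motif (ITAM) recruits the kinase SYK. In the newborn eye, macrophages accompany the hyaloid vessels that surround the lens and take part in the removal of those vessels.

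The 2 arrays lay on the same slide and shared a scan. In the CKO sample 55.1% of probes were well above background, the scanner software's mark for detection, and in wild type 54.2%. Msx2 itself was at least 22.6-fold lower in CKO, with 0 of 10 spots well above background there and 10 of 10 in wild type. All 5 fibre cell markers and all 4 lens epithelium markers examined were well above background on both arrays and within 2-fold of each other. Each macrophage probe was printed as a single spot, so the only error available for it is the scanner software's own estimate for that spot, given below as ± after a signal. This error leaves out the variation between animals. Where a probe was printed repeatedly, the log2 difference varied between its spots with an SD of 0.23 (0.066 among brighter probes and 0.32 among dimmer ones).

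The probe sequences show what was measured for several of these genes. Those below are the only Tyrobp probe and, for 4 genes with a pair of probes, the probe that lies farther from the 3′ end. They come from the array files, with positions in mm9, and are written 5′ to 3′ on the gene's strand.
Tyrobp: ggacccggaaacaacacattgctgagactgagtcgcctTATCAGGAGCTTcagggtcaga
Trem2: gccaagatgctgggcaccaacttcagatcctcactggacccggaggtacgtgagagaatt
Mpeg1: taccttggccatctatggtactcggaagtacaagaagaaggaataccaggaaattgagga
Lyz2: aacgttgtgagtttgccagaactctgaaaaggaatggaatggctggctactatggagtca
Cx3cr1: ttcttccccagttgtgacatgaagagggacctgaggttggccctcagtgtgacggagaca
In the Tyrobp probe the capitals mark a tyrosine codon that is followed, in an open reading frame, by 2 further codons and a leucine codon, the spacing found in an ITAM. The Tyrobp probe (A_51_P261517) occupies chr7:31200651-31202378, a span of 1728 bases for a 60-base probe. The Trem2 probe (A_51_P269549, chr17:48491220-48491356) likewise spans 137 bases. The Mpeg1 probe (A_52_P180373) lies at chr19:12537697-12537756, the Lyz2 probe (A_51_P321150) at chr10:116719175-116719234 on the minus strand, and the Cx3cr1 probe (A_51_P350853) at chr9:119960610-119960669 on the minus strand. The files do not say which part of the transcript a probe falls in. No pair of the 18 probes shared a run of more than 9 bases, and the Lyz1 probe shared at most 6 bases in a row with a Lyz2 probe.

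All 18 probes had a higher scaled signal in CKO than in wild type, although 3 of them were not well above background on either array. Of the rest, 10 were well above background on both arrays and 5 in CKO only, with 0 in wild type only. The same shares over all 41174 probes were not counted, so nothing is read from these probe counts. Of all genes seen on at least 1 array, 6.62% were seen in CKO only and 5.32% in wild type only. Among the undetected probes, the upstream Cx3cr1 probe differed by a log2 of only 0.04 (spot error 2.03). Its raw signal minus local background ran the other way, at 6.95 in CKO and 20.6 in wild type. At the level of genes, 9 of the 10 were measured, that is, had a probe well above background on both arrays, and Cx3cr1 was seen in CKO only. Of these 9 genes 8 exceeded wild type by 2-fold or more, and 0 were lower by that much. The same held for 4.11% of all 14221 measured genes, while 3.98% of them were lower by 2-fold or more, so 50.8% of the calls over all genes were upward. Scaling by the array median, not the 75th percentile, made 35.8% of the calls upward. In the macrophage set 6 genes exceeded 4-fold, against 0.816% of all measured genes, and all 9 exceeded 1.5-fold, against 9.35%. Among the 8154 measured genes whose mean level lay within the range of the 9 macrophage genes, 5.71% were at least 2-fold higher. Because the genes were chosen on this same difference, nothing is read from the contrast with these shares. In lens tissue as a whole, more macrophages and more of these RNAs per macrophage cannot be told apart.

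**Figure D1:**
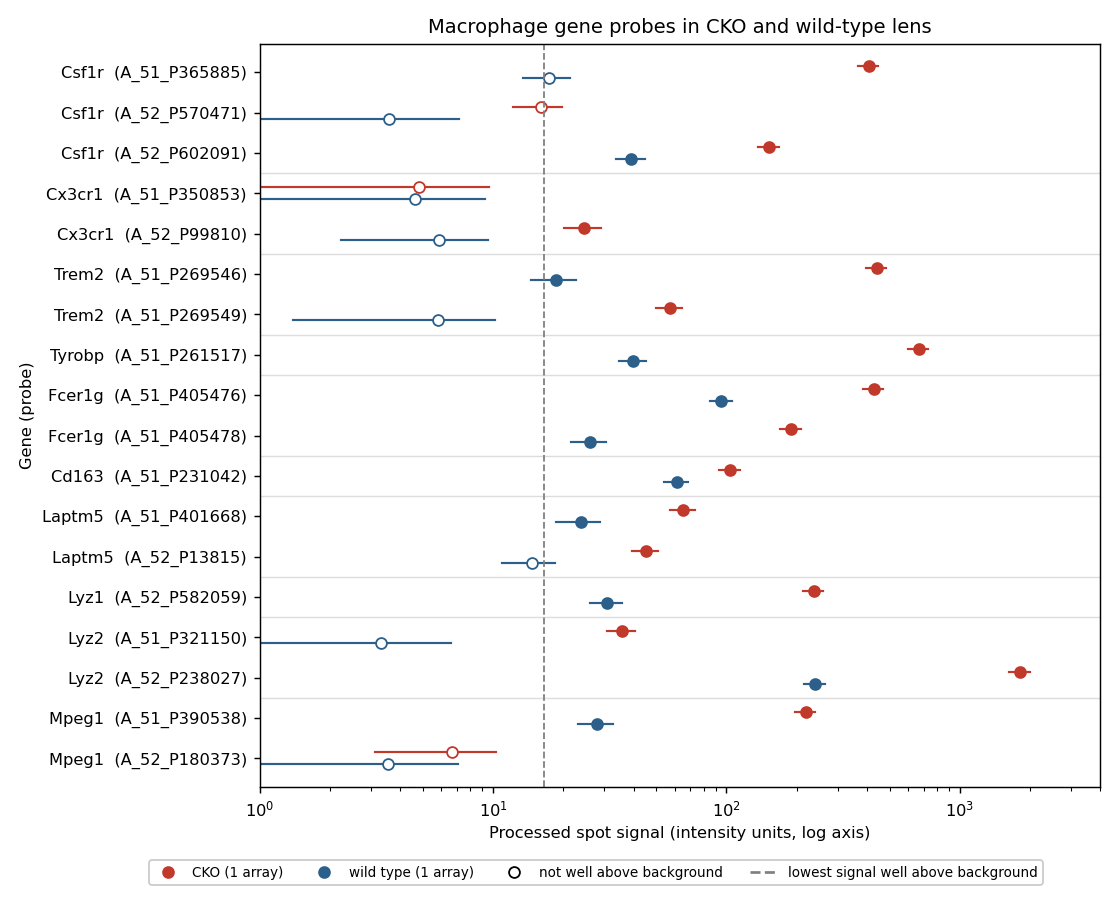
Processed signal (intensity units, log axis) of each of the 18 probes in CKO (red) and wild type (blue), 1 array each. Bars are the scanner software's error for the spot, cut at the left edge, open circles are not well above background, and the dashed line is the lowest signal well above background in CKO (16.5). The red point lies to the right of the blue for every probe, and 8 wild-type points are open against 3 CKO points.

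The median log2 difference of the 9 measured genes (CKO minus wild type) was 2.91, or 7.52-fold. The median of all measured genes was -0.12. With Cx3cr1 placed at its lower bound the median of the 10 genes was 2.53. The 9 differences were spread widely, from 0.75 to 4.55, with an SD of 1.21 between genes at 1 probe each. Whether the genes shared a single fold was not tested. With the processed signal and 1 probe for each gene, Trem2 and Tyrobp had the largest differences, Mpeg1, Lyz1 and Lyz2 lay between 2.91 and 2.96, and Laptm5 and Cd163 had the smallest. This order is not fixed. Another probe of Csf1r, undetected in wild type, gave a log2 ratio of 4.54, above Tyrobp and close to Trem2. With normexp background correction Tyrobp (2.83) and Lyz2 (2.63) exceeded Trem2 (2.55), and Lyz1 (1.63) and Mpeg1 (1.43) lay well below Lyz2.

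Csf1r, the growth factor receptor of the macrophage lineage, had 3 probes. The probe that was measured on both arrays (A_52_P602091) had a signal of 152 ± 15.7 intensity units in the CKO array and 39.1 ± 5.57 in the wild-type array. That is 3.87-fold higher in CKO, a log2 difference of 1.95 with a spot error of 0.25. The probe nearest the 3′ end (A_51_P365885) gave 406 ± 40.8 in CKO and 17.3 ± 3.95 in wild type, where it was not well above background. By that probe Csf1r was 23.3-fold higher. This is a plain ratio to an undetected signal and no lower bound, because 17.3 lies above the lowest detected signal in wild type (16.6). The probes lie 685 bases apart and disagree in size. Across 4847 genes, the log2 difference varied between probes of the same gene with an SD of 0.36. That SD covers only probes well above background on both arrays, which the 3′ probe was not, so it is no direct yardstick for this pair. Both Csf1r probes place the gene higher in CKO, but the size of its difference depends on the probe. A further probe, 20962 bases upstream of the 3′ one, was not well above background on either array.

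Cx3cr1, the receptor for the membrane-bound chemokine fractalkine, was the least secure of the 10. Its 3′ probe (A_52_P99810, chr9:119959018-119959077) gave 24.6 ± 4.46 in CKO, just above the lowest signal that counted as detected, and 5.86 ± 3.62 in wild type, below it. Set against the lowest detected signal in wild type (16.6), Cx3cr1 was at least 1.47-fold higher. Across all genes seen on at least 1 array, 6.62% were seen in CKO only and 5.32% in wild type only. The upstream probe printed above gave 4.80 ± 4.78 and 4.64 ± 4.61, neither of them detected. Whether Cx3cr1 differs by 2-fold was therefore not detectable at these signals.

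By the probe that stands for each gene, and with the processed signal, Trem2 had the largest difference of the 10 genes. Its 3′ probe (A_51_P269546, chr17:48491522-48491581) gave 440 ± 44.2 in CKO and 18.6 ± 4.01 in wild type, a 23.5-fold excess. Only 5 of the 14221 measured genes had a larger log2 difference than its 4.55 (spot error 0.34). The wild-type signal was only 1.12 times the lowest signal called well above background. The probe printed above, 225 bases upstream, gave 57.1 ± 7.27 in CKO and an undetected 5.81 ± 4.43 in wild type, which makes Trem2 at least 3.42-fold higher by that probe. Both Trem2 probes were therefore detected in CKO, but only the 3′ probe had a detected signal in wild type to compare it with.

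Tyrobp, the adaptor through which TREM2 signals, gave 665 ± 66.6 in CKO and 39.8 ± 5.34 in wild type. It was 16.6-fold higher, with a log2 difference of 4.05 (spot error 0.24), and 7 measured genes exceeded it. In wild type its signal stood at 2.40 times the lowest detected signal, so this fold rests on a detected signal on both sides. Normexp, which adds an offset of 50 to every spot, reversed the order of Tyrobp and Trem2, as given above.

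Fcer1g, the common gamma chain of Fc receptors, had a smaller excess than Tyrobp by its brightest probe. That probe (A_51_P405476, chr1:173159794-173159853) gave 427 ± 42.9 in CKO and 95.1 ± 10.3 in wild type, or 4.46-fold. A neighbouring probe (A_51_P405478), which overlaps it by a few bases, gave 189 ± 19.3 and 26.0 ± 4.47, or 7.21-fold. Fcer1g was the only gene of the set with more than 1 probe measured on both arrays. Its log2 difference was 2.16 by the first probe (spot error 0.21), 2.85 by the second (0.29) and 2.50 as their mean.

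FCER1G is also a subunit of the IgE receptor of mast cells, so markers of mast cells are given beside it. Of 6 mast cell genes 0 were measured on both arrays, 5 were detected in CKO only, and 4 of these by at least 2-fold. Among all genes seen on at least 1 array, 6.62% were seen in CKO only. Of the mast cell protease genes, Mcpt4 was higher by at least 19.3-fold and Cma1 by at least 16.8-fold. Their signals were 322 and 280 in CKO and an undetected 13.3 and 7.76 in wild type. The summed level of the 6 genes was 4.21 times the array's 75th percentile in CKO and 0.257 times in wild type. The other subunits of the IgE receptor, Fcer1a and Ms4a2, were not well above background on either array. The part of mast cells in the Fcer1g difference was not tested.

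Cd163, the scavenger receptor of tissue macrophages for haemoglobin bound to haptoglobin, differed least among the measured genes and was the only one below 2-fold. Its single probe (A_51_P231042, chr6:124280484-124280543) gave 104 ± 11.0 in CKO and 61.3 ± 7.07 in wild type. The 1.68-fold excess (log2 difference 0.75, spot error 0.23) lay below 2-fold, and 934 measured genes had a larger difference. Both signals were detected. With normexp the log2 difference was 0.37. How far background handling sets the size of the Cd163 difference was not tested.

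Laptm5, a lysosomal membrane protein of blood cells that limits receptor signalling, was the gene nearest above the 2-fold threshold. Its signals were 65.3 ± 7.96 in CKO and 23.7 ± 5.06 in wild type (A_51_P401668, chr4:130490785-130490844), or 2.73-fold. The log2 difference was 1.45 (spot error 0.35), and with normexp it was 0.49, below 2-fold. Its other probe gave 45.3 ± 5.69 in CKO and an undetected 14.7 ± 3.71 in wild type, which is at least 2.71-fold.

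The lysozyme genes Lyz1 and Lyz2 encode closely similar enzymes that cleave bacterial cell walls, Lyz2 being the form of macrophages and Lyz1 that of Paneth cells in the gut. The brighter Lyz2 probe (A_52_P238027, chr10:116714450-116714509) gave 1810 ± 181 in CKO and 239 ± 24.2 in wild type, a 7.52-fold excess (log2 difference 2.91, spot error 0.21). This was the wild-type signal farthest above the detection limit, at 14.4 times the lowest detected signal. Under normexp the Lyz2 difference was 2.63, a smaller shift than for the other 8 measured genes. The other Lyz2 probe, printed above and 4725 bases upstream, gave 35.6 ± 4.86 and an undetected 3.31 ± 3.29, at least 2.13-fold. The Lyz1 probe (A_52_P582059, chr10:116725254-116725313) gave 236 ± 23.9 and 30.8 ± 4.85, or 7.62-fold (log2 difference 2.93, spot error 0.27). With the processed signal the 2 log2 differences were equal within the spot errors. With normexp they were not, at 1.63 for Lyz1 against 2.63 for Lyz2. Normexp adds 50 to every spot, which shrinks the fold of a dim probe more, and the Lyz1 probe was the dimmer. How much of this split comes from the offset was not tested. How far Lyz2 RNA binds the Lyz1 probe was not tested, so the Lyz1 value is uncertain.

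The sequences before the starts of Lyz1 and Lyz2 are shown because the genes are neighbours with nearly equal differences by the processed signal. They are the 250 bases upstream of each start in RefSeq (GRCm38.p6, minus strand), at chr10:117292869-117293118 for Lyz1 and chr10:117282273-117282522 for Lyz2.
Lyz1: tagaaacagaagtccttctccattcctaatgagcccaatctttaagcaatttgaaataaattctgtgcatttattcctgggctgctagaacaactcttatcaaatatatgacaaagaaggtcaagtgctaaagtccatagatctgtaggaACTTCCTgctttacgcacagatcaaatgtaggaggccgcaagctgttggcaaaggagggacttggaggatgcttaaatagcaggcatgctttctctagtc
Lyz2: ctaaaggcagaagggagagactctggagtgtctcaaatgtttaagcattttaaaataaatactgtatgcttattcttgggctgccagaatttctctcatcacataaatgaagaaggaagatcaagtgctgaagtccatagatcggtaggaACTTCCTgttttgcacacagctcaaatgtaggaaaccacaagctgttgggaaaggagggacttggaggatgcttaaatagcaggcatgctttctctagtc
The capitals mark AGGAAGT on the opposite strand, letters that ETS family factors such as PU.1 can bind, which begin at position -100 from the start in both. The aligned sequences were identical at 200 of 252 columns (79.4%). Promoter entries of 300 bases (250 before the start and 50 after it) were matched for 8 of the 10 genes. On either strand, AGGAAGT occurred in 2 of the 8 (Lyz1 and Lyz2) and in 9.35% of all 32851 entries. GAGGAA occurred in 2 of 8 (Laptm5 and Trem2) against 28.3%. The longer GAGGAAGT, which contains both of these motifs, occurred in 0 of 8 against 3.20%, and TATAAA in 1 (Laptm5) against 13.6%. These are letter matches, and no binding was measured.

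Mpeg1, which encodes perforin-2, a pore-forming protein of macrophages, differed much like the lysozymes. Its 3′ probe (A_51_P390538, chr19:12539387-12539446) gave 218 ± 22.2 in CKO and 27.9 ± 4.74 in wild type, or 7.78-fold. The log2 difference was 2.96 (spot error 0.29), which 25 measured genes exceeded, and with normexp it was 1.43. The probe printed above lies 1690 bases upstream and was not detected on either array, at 6.70 ± 3.59 and 3.56 ± 3.55.

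The position of a probe and its detection were compared within genes. In the 7 genes with several probes, the most 3′ probe was well above background in CKO for 7 of 7 genes and in wild type for 4 of 7. The 8 upstream probes were detected in 5 cases in CKO and in 3 cases in wild type. The 6 genes with undetected probes (Csf1r, Cx3cr1, Trem2, Laptm5, Lyz2 and Mpeg1) include both genes whose upstream probes were undetected in CKO and genes whose probes were undetected in wild type alone.

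**Figure D2:**
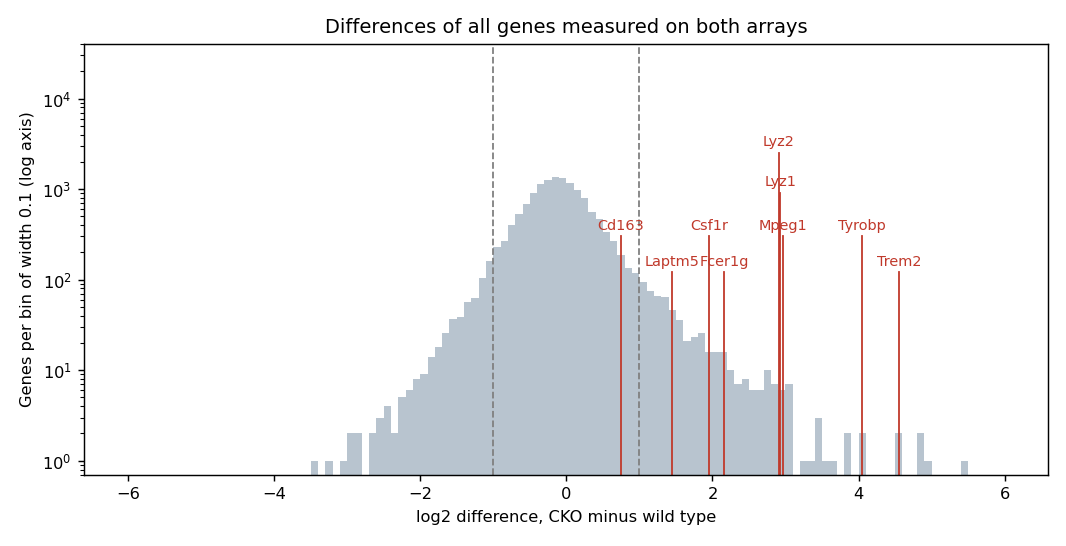
Number of genes (log axis) per 0.1 of log2 difference, CKO minus wild type, for all 14221 genes measured on both arrays, with the 9 measured macrophage genes marked in red and 2-fold as dashed lines. Cd163 lies inside the dashed lines at 0.75, and Tyrobp and Trem2 lie near the right end at 4.05 and 4.55.

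The partners of these proteins were examined next, from lists of receptors, ligands and signalling genes. The CSF1R ligands differed by less than 2-fold. Csf1 was 1.27-fold higher in CKO (93.7 against 73.5 intensity units), and Il34, the ligand of microglia and Langerhans cells, was 1.42-fold higher (97.3 against 68.2). Of the 18 genes on the list around Csf1r 13 were measured, 4 exceeded wild type by 2-fold or more and 0 were lower by as much, with a median log2 difference of 0.50. The 4 were Csf2rb, the shared receptor chain of GM-CSF, IL-3 and IL-5 (5.89-fold), and the transcription factor genes Klf4 (3.39-fold), Myb (2.35-fold) and Cebpb (log2 difference 1.07). Spi1, which encodes PU.1, a regulator of Csf1r and of most macrophage genes, was not well above background on either array.

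The Cx3cr1 ligand gene Cx3cl1, which encodes fractalkine, was 1.15-fold higher (480 against 415). All 7 genes on the list around Cx3cr1 were measured and 1 was at least 2-fold higher, Ctss, the lysosomal protease cathepsin S (42.3-fold). The others lay within 2-fold, among them Arrb2 at 1.63-fold higher and Gnai3 at 1.33-fold lower.

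Other receptors that pair with Tyrobp were mostly undetected. On a hand-written list of 14 receptors for this adaptor, Trem2 aside, 11 had probes, 3 were measured, and 0 of these were at least 2-fold higher. Trem1, a receptor of neutrophils and monocytes, was 1.32-fold lower, Pilrb1 1.03-fold lower, and Oscar, a receptor of osteoclasts, 2.04-fold lower. Oscar is also counted on the Fcer1g list below, and whether it pairs with Tyrobp was not checked. Cd300lb was detected in wild type only, 1.42-fold lower as a plain ratio, and the other 7 were not well above background on either array. Fc receptors were detected more often in CKO than in wild type. Of 15 Fc and Fcer1g-paired receptors 3 were detected in CKO only and 0 in wild type only, and the 3 values were all above 2-fold. Among all genes seen on at least 1 array, the shares were 6.62% in CKO only and 5.32% in wild type only. Fcgr3, an activating IgG receptor that uses FCER1G, was at least 23.2-fold higher, at 387 in CKO and an undetected 10.3 in wild type. Fcgr2b, the inhibitory IgG receptor, which carries its own motif and does not need FCER1G, was at least 8.32-fold higher. Fcgr1 was the third, with a log2 ratio of 1.93 to an undetected signal, which is no lower bound. Of the 3 measured receptors on this list Fcgr4 was 1.59-fold higher, Clec4n 1.04-fold higher, and Oscar lower as above.

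Genes that act below the ITAM were mixed. Of 31 genes on this list 18 were measured, with a median log2 difference of 0.32, 2 higher and 1 lower by 2-fold or more. The adaptor genes Dok3 and Blnk were 3.14-fold and 2.47-fold higher. Lcp2, the adaptor SLP-76 of T cells, platelets and myeloid cells, was 4.08-fold lower, at 106 in CKO and 430 in wild type. Syk itself lay within 2-fold (log2 difference 0.61). The myeloid kinase gene Lyn and the GTPase gene Rac2 were detected in CKO only. Rac2 had a lower bound of 4.61-fold, and Lyn a plain ratio of 3.17-fold to an undetected signal.

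Ligands of TREM2 and genes often linked to it went both ways. Of 12 genes 7 were measured, 3 of them higher and 1 lower by 2-fold or more. Apoe, an apolipoprotein that binds TREM2, was 5.44-fold higher (1818 against 332). The tetraspanin gene Cd9 was 4.25-fold higher and Apoc1 had a log2 difference of 1.14. Clu, an apolipoprotein gene that lens cells also express strongly, was 2.34-fold lower. Gpnmb and Lpl, genes of lipid-handling macrophages and of other cells, were detected in CKO only, with lower bounds of 9.92-fold and 5.58-fold.

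Around Cd163, the list of haemoglobin handling and tissue macrophage genes had 7 measured of 15, with 3 at least 2-fold higher and 0 lower. These were Folr2, a folate receptor of resident macrophages (5.39-fold), the iron exporter gene Slc40a1 (2.64-fold) and the haem carrier gene Hpx (2.10-fold). Cd68 and F13a1 were detected in CKO only. Cd68 had a lower bound of 7.78-fold, and F13a1 a plain ratio of 7.48-fold to an undetected signal. In contrast, relatives of the effector proteins showed little. Of 13 genes related to lysozyme, pore-forming proteins or Laptm5, 5 were measured and 0 differed by 2-fold, the widest being C8a at 1.32-fold lower, Laptm4b at 1.27-fold lower and Lalba at 1.18-fold higher.

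**Figure D3:**
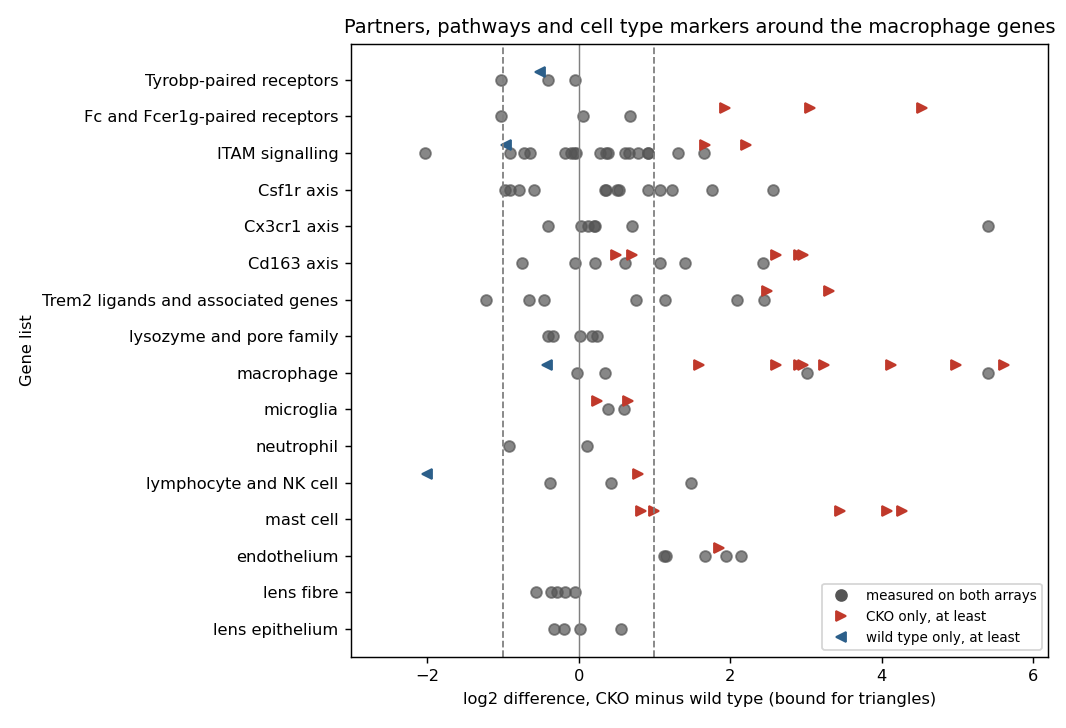
Log2 difference, CKO minus wild type, of each detected gene on the 16 lists of partners, pathway genes and cell type markers, without the 10 macrophage genes. Circles are genes measured on both arrays, red and blue triangles are at-least values for genes seen in CKO only or wild type only, and dashed lines mark 2-fold. Some of the at-least values are plain ratios to an undetected signal. Triangles at large values lie mostly on the macrophage, mast cell, Fc receptor, Cd163 and Trem2 lists, whereas the fibre and epithelium circles stay within the dashed lines.

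Markers of other cells were set beside these values. Over the 16 lists together 86 of 173 genes were measured, and 20 of them (23.3%) were higher and 3 lower by 2-fold or more. Of all 14221 measured genes, 4.11% were higher and 3.98% lower by as much. The lists were written with earlier results of these arrays known, so nothing is read from this contrast. Of 14 macrophage genes outside the 10 followed here, 4 were measured. Another 8 were detected in CKO only, all by 2-fold or more, for some as a plain ratio to an undetected signal. Across all genes seen on at least 1 array, 6.62% were seen in CKO only and 5.32% in wild type only. Some of the 14, Ctss, Cd68 and F13a1 among them, are also counted on the Cx3cr1 or Cd163 list. C1qa, a subunit of complement C1q, had a lower bound of 31.5-fold. C1qc, another subunit, was 48.8-fold higher as a plain ratio to an undetected signal. The chemokine gene Pf4 was 8.11-fold higher. Cd14 was 1.27-fold higher, and the integrin gene Itgam was detected in wild type only. The summed level of these 14 genes was 30.1 times the 75th percentile in CKO and 5.05 times in wild type. C1qb, with nearly equal signals of 665 in CKO and 668 in wild type, gave the largest part of the wild-type sum. The sums for the 10 genes followed here, with 1 probe each, were 20.4 and 2.89.

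Markers that set microglia apart from other macrophages were within 2-fold where measured. Sall1 was 1.31-fold higher. Tmem119 and P2ry12 were detected in CKO only, Tmem119 with a bound of 1.58-fold and P2ry12 with a plain ratio of 1.19-fold. Gpr34 and Siglech were not well above background on either array. Of 7 neutrophil genes 2 were measured, with Mpo lower by 1.89-fold and Ltf higher by 1.08-fold. The defining neutrophil genes S100a8, S100a9, Ngp, Camp and Elane were not well above background on either array, and the summed level of the list was 4.11 in CKO and 6.51 in wild type. Lymphocyte and NK cell genes summed to 5.19 and 4.09, with Cd79a 2.79-fold higher, Nkg7 1.35-fold higher, and Cd3e 1.30-fold lower. Cd79b was detected in CKO only, at least 1.72-fold higher, and Ms4a1 in wild type only, at least 3.99-fold lower. Endothelial markers differed in the same direction as the macrophage genes. All 5 that were measured were at least 2-fold higher, led by Vwf (4.41-fold), Tie1 (3.84-fold) and Cldn5 (3.19-fold). Pecam1, detected in CKO only, was 3.62-fold higher as a plain ratio to an undetected signal. The summed level of the endothelial list was 23.4 in CKO and 7.26 in wild type. The part of vessels in the macrophage differences was not tested.

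**Figure D4:**
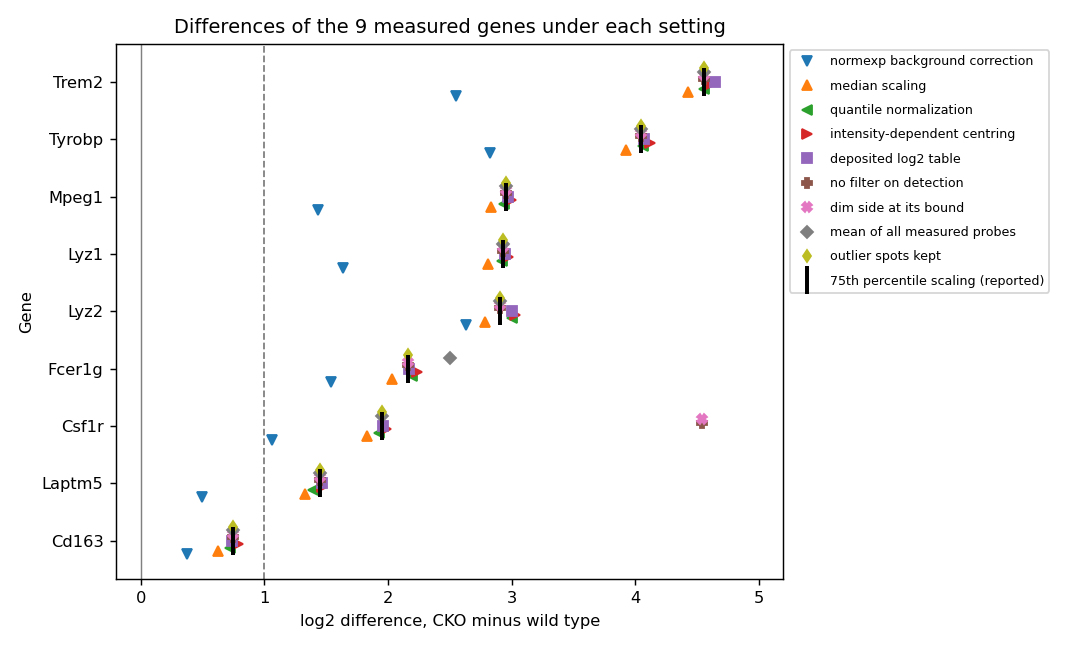
Log2 difference, CKO minus wild type, of the 9 measured macrophage genes under the reported setting (black bars) and 9 alternatives (coloured markers), with 2-fold as a dashed line. All markers lie above 0, normexp values are the lowest for each gene, and Csf1r reaches 4.54 where its 3′ probe is used.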

How the data were processed

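Total RNA was amplified and Cy3-labelled, per the labels' protocols. The arrays (Agilent design 014868, mm9) were read with Feature Extraction 10.7.3.1, per the file headers (version 10.7 per the submitters' processing notes). The intensity values that the authors deposited were corrected for background and spatial trend within each array and not normalized between arrays. The log2 table that the authors deposited (median 4.87 per array) served as an alternative. It runs in the same direction as the scanner signal (r = 0.990 for the difference across probes), and its scale and shift are unknown.

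Here log2 of the processed signal minus each array's 75th percentile (203 intensity units in CKO, 201 in wild type) was used, without control spots or spots marked as outliers. The well-above-background mark had to be present on more than 50% of a probe's spots. A gene took its brightest probe measured on both arrays. An at-least fold or lower bound sets the brighter signal against the higher of the dim probe's own signal and the lowest signal well above background on that array. Where the dim probe's own signal is the higher, the value is a plain ratio to an undetected signal and no true bound. Among the named genes this holds for Fcgr1, Lyn, F13a1, C1qc, Pecam1, P2ry12, Cd300lb and the 3′ probe of Csf1r. Differences were counted at 2-fold. RefSeq (GRCm38.p6) named 27668 probes through their accession, 5589 through their symbol and 471 through an older symbol, and 7446 kept the file's name. The genes and lists were chosen with earlier results of these data known. Named from each list were the 3 measured genes with the largest difference, the 2 with the largest at-least fold and any at least 2-fold lower, plus the ligands Csf1, Il34 and Cx3cl1. Genes named to complete a small count or a marker list (Cebpb, Fcgr1, Apoc1, Syk, Spi1, Itgam, C1qb and undetected markers) were added after their values were seen. One marker gene is not reported here. The spot error of a log2 difference combines the relative errors of the 2 signals. The procedure was tested on simulated data. Normexp used limma 3.58.1 in R 4.3.3, and the rest used Python 3.11.15, numpy 2.4.6, pandas 2.3.3 and statsmodels 0.14.6.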

Additional observations from a re-analysis of the deposited data

How the results depend on the processing

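All 9 measured macrophage genes kept a positive difference under each of the 9 alternatives to the processing, 81 values in all, of which 12 moved by more than the spread of repeated spots and 0 reversed. With normexp background correction the median of the 9 genes fell from 2.91 to 1.54, 7 rather than 8 were at least 2-fold higher, and 11 rather than 20 of the list genes were. A 4-fold threshold left 6 of the 9 genes and a 1.5-fold threshold all 9. Counts over all genes at 2-fold were 584 higher and 566 lower, against 233 and 218 under normexp, 2027 and 1753 when undetected probes were let in, and 970 and 788 with probes seen on 1 array set at their bound. Median scaling moved the median of all genes from -0.12 to -0.24. Of the 9 genes, Trem2, Laptm5 and Mpeg1 had the wild-type signals nearest the detection limit, at 1.12, 1.43 and 1.68 times the lowest detected signal. How far this sets their folds was not tested. No paired analysis was possible because each genotype has 1 array, and no replicate could be left out.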

Other observations

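C1qb stood apart from its partner subunits. Its single probe gave nearly equal scaled signals on both arrays (log2 difference -0.016), whereas C1qa, also with 1 probe, was at least 31.5-fold higher in CKO. C1qc, with 1 probe as well, was 48.8-fold higher, a plain ratio to an undetected signal. C1qb was picked out after its value was seen.

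Outside the lists, the genes whose log2 difference lay nearest the median of the 9 macrophage genes were Cd83, an activation marker of antigen-presenting cells (7.48-fold), Thbd, the thrombin receptor thrombomodulin (7.47-fold), Tgfbi (7.40-fold), the 28S ribosomal RNA gene Rn28s1 (7.34-fold) and the small heat shock protein gene Hspb8 (7.19-fold). With 2 arrays this likeness is a single difference and no pattern across samples.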
